A study of Mus musculus with 13 samples.

Results

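The 10 genes described here mark the 2 cell types that make up small brain vessels: Pecam1, Flt1, Cldn5, Cdh5, Thbd and Adgrl4 for the endothelial lining, Rgs5, Vtn and Pdgfrb for the pericytes around it, and Tinagl1 for their shared matrix. They were looked up by symbol among the 26264 genes of a normalized count table, all 10 were found, and all 10 were among the 17755 genes tested. The first 4 endothelial genes and the 3 pericyte genes are standard markers. Thbd, Tinagl1 and Adgrl4 were chosen by the pattern of their normalized counts across these libraries, so those values are a description and carry no test.

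The tissue was punched from the ventral tegmental area (VTA), a midbrain region rich in dopamine neurons, of mice labelled as strain C57BlJ/6. At postnatal day 14 the region received a virus that carried either Setd7, a lysine methyltransferase, or green fluorescent protein (GFP), and in adulthood the mice either met social defeat or did not. All 4 groups therefore carry a virus. Undefeated mice form GFP control, with 3 libraries of which 1 is from a female, and Setd7 control, with 4 libraries and 2 females. Defeated mice form GFP defeat, with 4 libraries and 2 females, and Setd7 defeat, with 2 libraries and 1 female. The promoter of the virus, the cells it infects and the adult age are not given in the sources used here. Nothing in the labels says that each library is a separate animal, so p-values measure the spread between these 13 libraries, and the data column of Setd7 defeat replicate 1 carries a longer number than its title. Whether that library holds 1 animal is not settled here, and because it is female and replicate 2 is male, library and sex cannot be told apart within Setd7 defeat.

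Brain endothelial cells are joined by tight and adherens junctions into a barrier that lets little pass between cells, and they exchange nutrients through transporters. Pericytes sit in the same basement membrane, are recruited by platelet-derived growth factor B acting on its receptor Pdgfrb, and help to keep the barrier closed. In bulk tissue, fewer cells of a type and less RNA per cell cannot be told apart, so every value below is a level in the whole punch.

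Upstream regions are shown for the members with both Setd7 defeat libraries above all 11 others and an entry in the RefSeq promoter table (Flt1, Tinagl1, Adgrl4, Rgs5), and for Cldn5, whose difference after defeat changed sign with 1 library. Each window runs from 250 bases before to 50 bases after a start site in build GRCm38.p6, read 5′ to 3′ on the strand of the gene. They are Flt1 at chr5:147725962-147726261 (minus strand), the first of 2 listed starts of Tinagl1 at chr4:130175073-130175372 (minus), Adgrl4 at chr3:151437632-151437931 (plus), Rgs5 at chr1:169655251-169655550 (plus) and Cldn5 at chr16:18776597-18776896 (plus). Capitals mark AGGAAG or its reverse complement CTTCCT, a hexamer that holds the GGAA core read by ETS factors, the family of the endothelial regulators Erg, Fli1 and Ets1.
Flt1: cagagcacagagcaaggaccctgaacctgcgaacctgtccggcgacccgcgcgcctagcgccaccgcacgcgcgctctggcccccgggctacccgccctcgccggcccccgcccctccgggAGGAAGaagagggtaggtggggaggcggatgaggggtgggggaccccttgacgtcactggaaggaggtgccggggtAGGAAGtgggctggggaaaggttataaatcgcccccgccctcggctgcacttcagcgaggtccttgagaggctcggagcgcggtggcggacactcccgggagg
Tinagl1: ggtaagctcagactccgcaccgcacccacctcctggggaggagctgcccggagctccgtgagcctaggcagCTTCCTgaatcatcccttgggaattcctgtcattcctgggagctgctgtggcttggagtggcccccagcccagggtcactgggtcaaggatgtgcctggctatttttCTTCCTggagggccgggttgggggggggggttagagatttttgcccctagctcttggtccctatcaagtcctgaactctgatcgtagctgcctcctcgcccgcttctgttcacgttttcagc
Adgrl4: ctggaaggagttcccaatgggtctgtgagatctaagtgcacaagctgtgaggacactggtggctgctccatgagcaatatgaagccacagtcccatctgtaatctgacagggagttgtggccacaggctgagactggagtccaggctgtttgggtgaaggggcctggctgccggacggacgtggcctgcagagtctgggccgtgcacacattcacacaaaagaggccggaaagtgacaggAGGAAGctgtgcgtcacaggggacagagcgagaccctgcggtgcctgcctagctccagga
Rgs5: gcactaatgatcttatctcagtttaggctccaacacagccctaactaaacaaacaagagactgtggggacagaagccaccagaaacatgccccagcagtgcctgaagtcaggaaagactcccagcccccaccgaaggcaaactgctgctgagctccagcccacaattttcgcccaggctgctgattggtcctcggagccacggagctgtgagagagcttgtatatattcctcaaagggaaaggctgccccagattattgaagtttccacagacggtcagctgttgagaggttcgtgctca
Cldn5: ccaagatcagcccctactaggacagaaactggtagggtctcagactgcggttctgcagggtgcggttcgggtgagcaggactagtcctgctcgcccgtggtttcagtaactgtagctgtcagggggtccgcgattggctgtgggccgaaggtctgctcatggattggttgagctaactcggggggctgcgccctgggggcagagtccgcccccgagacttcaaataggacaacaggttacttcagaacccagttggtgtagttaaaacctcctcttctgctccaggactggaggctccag

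Windows were kept for 6 of the 10 members, 7 windows in all. None was kept for Pecam1, Cdh5, Thbd and Pdgfrb. Entries on the chromosome of Pdgfrb were left out of the search, so its lack of a window does not show a missing entry. AGGAAG was found on either strand 2 times in the window of Flt1, starting 129 and 53 bases before the start site, 2 times in the first window of Tinagl1 and 1 time in its second, and 1 time in that of Adgrl4. No copy was in the windows of Rgs5, Cldn5 or Vtn. Among all 32851 windows of the same length, 35.4% held AGGAAG, so the match is common, and CGGAAG, a related form held by 16.9%, was in none of the 7. GGGCGG, a GC box, was in the windows of Flt1, Cldn5 and the second start of Tinagl1 and in 35.7% of all windows. TATAAA was in those of Flt1 and Vtn and in 13.6% of all. Base composition differed among the windows, from 51.7% G and C in Vtn to 70.7% in Flt1. These matches are letters in a window and say nothing of binding.

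Setd7 read 10888 to 14538 normalized counts in the 7 GFP libraries and 28587 to 158681 in the 6 Setd7 libraries, so the virus labels hold in every library. The libraries hold 26.5 to 50.8 mega-reads assigned to genes, and the scarcest member, Tinagl1, rests on 195 to 610 reads and the most abundant, Rgs5, on 3232 to 6718. Setd7 defeat replicate 1 stands apart: all 16 genes of a meningeal fibroblast list were highest there, with a summed level of 29956 normalized counts against 5483 to 9564 in the 11 libraries outside Setd7 defeat and 6560 in replicate 2. The differences that involve Setd7 defeat are therefore given with and without it. Values with 1 Setd7 defeat library left out come from refits that keep a term for sex. The remaining library is then adjusted for its sex and not read directly. In 3 GFP libraries (replicates 2 and 3 of the controls and replicate 1 of the defeated) the dopamine marker Th read 2508 to 3392, against 9760 to 19111 in the other 10.

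Per kilobase of exon, which allows genes to be set side by side, the pericyte regulator Rgs5 had the highest level, with a median of 939 normalized counts per kb over the 13 libraries (767 to 1169). Cldn5 followed at 864 (682 to 1213) and Vtn at 706 (578 to 1774), and the ranges of these 3 overlap. Flt1, at 368 (335 to 433), lay below all values of those 3 and above all values of Pdgfrb (211, from 168 to 269), with Adgrl4 at 244 (234 to 341) between them and overlapping both. Pdgfrb, Cdh5 (211, from 161 to 313) and Pecam1 (149, from 122 to 225) overlapped. Thbd had a median of 137 (110 to 591) and Tinagl1, the lowest of the 10, of 66.2 (52.6 to 140). Endothelial and pericyte markers were thus measured in every punch, and none was near 0.

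Pecam1 encodes CD31, an adhesion protein at contacts between endothelial cells. In replicate order, its normalized counts under GFP were 1061, 874 and 908 without defeat and 959, 928, 758 and 985 after defeat. Under Setd7, 876, 1114, 832 and 869 without defeat stood against 1398 and 995 after defeat. Replicate 1 of Setd7 defeat was the highest of all 13, and replicate 2 lay above all GFP defeat libraries but within the range of the controls. After defeat, Pecam1 was higher with Setd7 than with GFP by 0.39 ± 0.12 on the log2 scale (standard error, SE), with a limma adjusted p of 0.990 over all 17755 genes. The difference was 0.24 without replicate 1 and 0.53 without replicate 2.

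Cdh5 encodes VE-cadherin, which holds the adherens junction of endothelial cells together. Normalized counts were 872, 677 and 897 without defeat and 890, 994, 678 and 923 after defeat under GFP, and 749, 994, 732 and 796 under Setd7 without defeat. Setd7 defeat gave 1317 and 888. Only replicate 1 was outside the range of the other libraries, and replicate 2 ranked seventh of 13. The log2 difference after defeat was 0.33 ± 0.16 (SE), limma adjusted p = 0.990, and 0.14 without replicate 1.

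Cldn5 encodes claudin-5, the main sealing protein of the tight junctions at the blood-brain barrier. Its libraries read 965, 1292 and 1313 without defeat and 1113, 1103, 1395 and 1224 after defeat under GFP, and 1203, 1189, 1421 and 1293 under Setd7 without defeat, as normalized counts. In Setd7 defeat they read 1717 and 1162, the highest and the fourth lowest of the 13. The groups overlapped throughout. The log2 difference after defeat was 0.23 ± 0.16 (SE), limma adjusted p = 0.990, and it changed sign to -0.18 without replicate 1 and stood at 0.64 without replicate 2.

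Flt1 encodes a receptor for vascular endothelial growth factors (VEGFR1), which binds VEGF-A tightly and limits its action on the signalling receptor Kdr. Normalized counts were 4971, 4715 and 4570 without defeat and 4773, 5154, 5132 and 5298 after defeat under GFP, and 5160, 4918, 4529 and 4923 under Setd7 without defeat. Both Setd7 defeat libraries, at 5503 and 5847, were above all 11 others, and here replicate 2 was the higher. The step was small beside those of Thbd and Tinagl1: 0.16 ± 0.07 on the log2 scale after defeat (limma adjusted p = 0.990), 0.22 without replicate 1 and 0.10 without replicate 2. The 11 other libraries span only 1.17-fold, the narrowest spread of any member.

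Thbd encodes thrombomodulin, the endothelial surface receptor that turns thrombin towards activating protein C and so restrains clotting. It was picked for its pattern. Its normalized counts were 502, 537 and 504 without defeat and 569, 504, 408 and 447 after defeat under GFP, and 536, 556, 509 and 493 under Setd7 without defeat. Setd7 defeat replicate 1 read 2200, which is 4.36 times the median of the 11 other libraries, and replicate 2 read 648, or 1.29 times that median. Both were above all 11, but the distance between them was greater than that from replicate 2 to any other library. The log2 difference after defeat was 1.32, 0.52 without replicate 1 and 2.12 without replicate 2.

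Tinagl1 encodes a secreted matrix protein of vessel walls and was also picked for its pattern. Its libraries read 265, 266 and 289 without defeat and 250, 297, 229 and 282 after defeat under GFP, and 333, 334, 269 and 293 under Setd7 without defeat, as normalized counts. Setd7 defeat gave 612 and 361, both above the 11 others, with the nearest of them at 334. The log2 difference after defeat was 0.83, 0.51 without replicate 1 and 1.16 without replicate 2.

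Adgrl4, the third member picked for its pattern, encodes an adhesion G-protein-coupled receptor of endothelial cells. Normalized counts were 1331, 1089 and 1078 without defeat and 1103, 1209, 1072 and 1110 after defeat under GFP, and 1153, 1270, 1118 and 1113 under Setd7 without defeat. Setd7 defeat gave 1562 and 1361, both above the 11 others, although GFP control replicate 1, at 1331, came close to replicate 2. Of the picked genes it depended least on a single library, with a log2 difference after defeat of 0.38, 0.35 without replicate 1 and 0.40 without replicate 2. Read directly against the GFP defeat mean, without the term for sex, Adgrl4 was higher by 0.48 in replicate 1 and 0.28 in replicate 2.

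**Figure D1:**
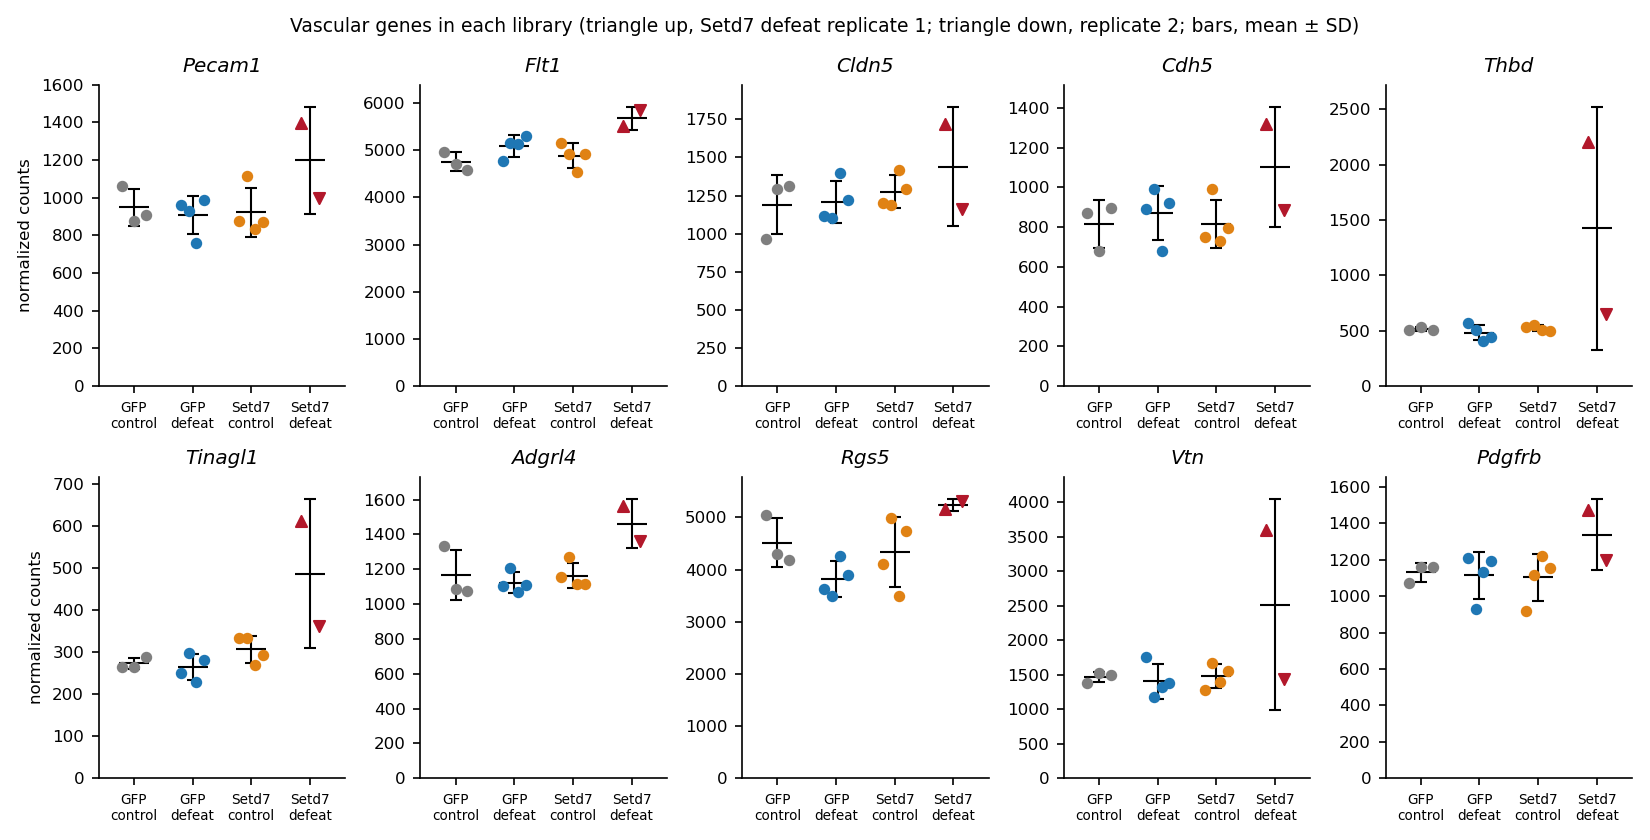
Normalized counts (vertical axis, from 0) of the 10 vascular genes in each library, by virus and defeat group, with bars for mean ± SD (n = 3, 4, 4 and 2). The 2 Setd7 defeat libraries are shown as triangles: Flt1, Thbd, Tinagl1, Adgrl4 and Rgs5 have both above the 11 other libraries, while Pecam1, Cldn5, Cdh5, Vtn and Pdgfrb have replicate 2 within the range of those 11.

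Rgs5 encodes a regulator of G-protein signalling and is among the most used pericyte markers. Its normalized counts were 5052, 4291 and 4189 without defeat and 3627, 3496, 4267 and 3891 after defeat under GFP, and 4112, 4985, 3486 and 4741 under Setd7 without defeat. Setd7 defeat gave 5158 and 5316, both above the 11 others, though GFP control replicate 1 came close to the lower. Its difference after defeat was carried by both libraries, at 0.46 ± 0.13 on the log2 scale (SE, limma adjusted p = 0.990), 0.51 without replicate 1 and 0.41 without replicate 2.

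Vtn encodes vitronectin, an adhesive glycoprotein that pericytes secrete in the brain. Normalized counts were 1382, 1521 and 1492 without defeat and 1762, 1173, 1318 and 1380 after defeat under GFP, and 1279, 1678, 1400 and 1563 under Setd7 without defeat. Setd7 defeat gave 3601 and 1434, so replicate 1 was 2.57 times the median of the 11 others and replicate 2 was 1.02 times it. The log2 difference after defeat was 0.71 ± 0.25 (SE), limma adjusted p = 0.990. It was 0.04 without replicate 1, and without replicate 2 it was 1.37 with a limma adjusted p of 0.0345, which rests on a single library assumed to vary like the other groups.

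Pdgfrb encodes the receptor that brings pericytes to vessels. Its libraries read 1072, 1160 and 1158 without defeat and 1207, 928, 1133 and 1193 after defeat under GFP, and 919, 1117, 1218 and 1156 under Setd7 without defeat, as normalized counts. With 1475 and 1199 in Setd7 defeat, replicate 1 was the highest of the 13 and replicate 2 was inside the range of the rest. The log2 difference after defeat was 0.26 ± 0.13 (SE), limma adjusted p = 0.990, and 0.03 without replicate 1.

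After defeat, then, all 10 members had higher fitted means with Setd7 than with GFP, from 0.16 to 1.32 on the log2 scale, with a median of 0.38 against 0.00 over all genes tested, of which 50.8% were above 0. Because the members were chosen with these values known, the count carries no test. Limma called 0 of the 17755 genes at an adjusted p under 0.05 (862 at an unadjusted p under 0.05, 4.85%), edgeR called 0 and DESeq2 called 6 (0.0338%), none of them among the 7 standard markers. Calls of the picked genes are not counted here or below, since their values chose them. Of the 7 standard markers, 4 (Pecam1, Flt1, Rgs5 and Vtn) had an unadjusted limma p under 0.05 and none passed the adjustment. The median of the 10 members was 0.23 without Setd7 defeat replicate 1 and 0.52 without replicate 2. With replicate 2 left out, the limma calls rest on the lone replicate 1, and Vtn was the only standard marker among them. They also held Fn1, Islr, Ogn and Slc6a20a of the meningeal fibroblast list and Slc22a8, a barrier transport gene. Read directly against the GFP defeat mean, Slc22a8 stood at 1.57 in replicate 1 and 0.21 in replicate 2.

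Both Setd7 defeat libraries were above all 4 GFP defeat libraries in 6 of the 10 members, against 7.09% of all genes tested: Pecam1, Flt1, Thbd, Tinagl1, Adgrl4 and Rgs5. Without the picked genes this is 3 of 7. They were above all 11 other libraries in 5 of the 10 (0.997% of all genes), and in 2 of the 7 standard markers, Flt1 and Rgs5. Replicate 1 was the highest of the 13 libraries in 8 of the 10 members (9.47% of all genes) and replicate 2 in the other 2, Flt1 and Rgs5 (6.56%). The 8 hold Thbd, Tinagl1 and Adgrl4, which were picked for their pattern. Replicate 1 was outside the range of the 11 others for all 10 members. Replicate 2 was inside that range for 5 of them, Pecam1, Cldn5, Cdh5, Vtn and Pdgfrb.

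**Figure D2:**
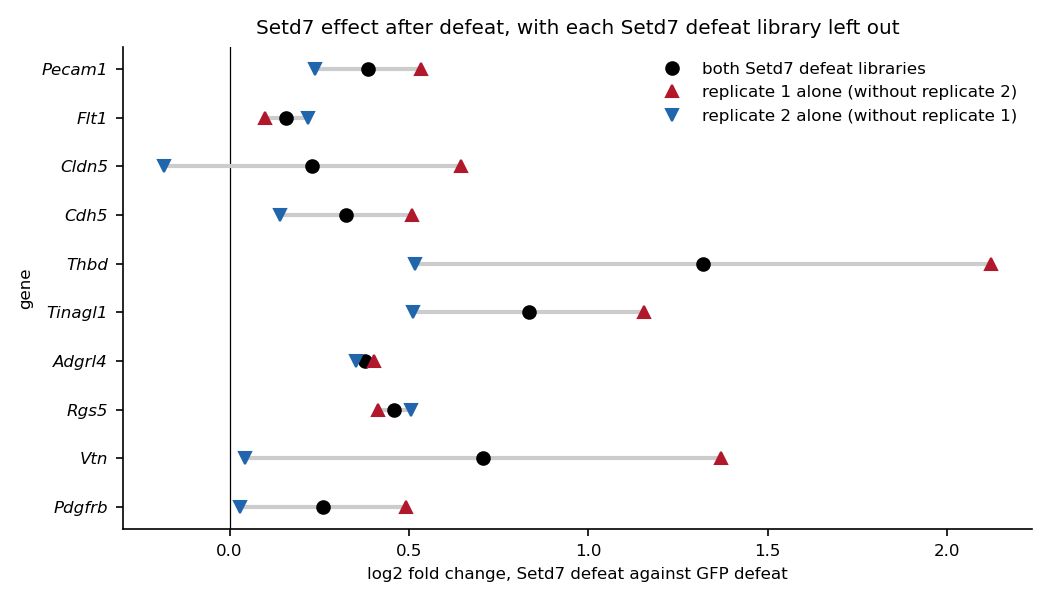
Log2 fold change between Setd7 defeat and GFP defeat (horizontal axis) for each of the 10 genes (vertical axis), with both Setd7 defeat libraries (circles) and with only 1 of them (triangles). Between the fits with only 1 library, Adgrl4, Rgs5 and Flt1 differ little, Thbd and Vtn differ by more than a unit, and Cldn5 changes sign. Each fit keeps a term for sex, which adjusts a lone library for its sex. Read directly against the GFP defeat mean, replicates 1 and 2 differed by 0.48 and 0.28 for Adgrl4 and by 0.51 and -0.05 for Cldn5.

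Between defeat and control with the Setd7 virus, a comparison that uses the same 2 Setd7 defeat libraries, all 10 members were again higher, from 0.15 for Cldn5 to 1.19 for Thbd on the log2 scale, with a median of 0.35 (-0.01 over all genes, 48% of them above 0). Limma and edgeR called 0 genes (459, or 2.59%, and 464 at an unadjusted p under 0.05) and DESeq2 called 7 (0.0394%), none of them a standard marker. The adjusted p of the 7 standard markers was 0.9999 by limma. Both Setd7 defeat libraries were above all 4 Setd7 control libraries in 5 of 10 members (4.18% of all genes), the same 5 that were above all 11. Among these, Thbd, Tinagl1 and Adgrl4 were picked for their pattern, and the standard markers are Flt1 and Rgs5. Neither count of members carries a test, since the members were chosen with these values known. Without replicate 1 the median was 0.25 and 8 of 10 were above 0. The difference of Cldn5 was then -0.26, of Vtn -0.04, of Pdgfrb 0.05 and of Thbd 0.39. Without replicate 2, the limma calls rest on the lone replicate 1, and Vtn was the only standard marker among them. They also held Fn1 and Islr of the meningeal fibroblast list, the basement membrane gene Lamb2 and Slc22a8.

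Without defeat, the vascular genes did not all lie on one side with the Setd7 virus: 3 members were higher and 7 lower, from -0.08 for Pecam1 to 0.13 for Cldn5 on the log2 scale. The median was -0.03 against 0.01 over all genes, of which 51.4% were above 0. In none of the 10 members did the 4 Setd7 control libraries lie all above the 3 GFP control libraries (4.17% of all genes) or all below them (4.09%). The limma adjusted p of the 7 standard markers ran from 0.831 to 0.985. Limma and edgeR called 0 genes (1423, or 8.01%, and 1483 at an unadjusted p under 0.05), and DESeq2 called 35 (0.197%), no member among them. DESeq2 gave no adjusted p to 6540 of the genes tested, and its share counts them as not called.

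Defeat with the GFP virus likewise left 3 members higher and 7 lower, from -0.24 for Rgs5 to 0.10 for Flt1, with a median of -0.08 against 0.00 over all genes, 49.6% of them above 0. No member separated the 4 GFP defeat from the 3 GFP control libraries in either direction (4.26% and 4.74% of all genes). Rgs5 had the lowest limma adjusted p of the 7, 0.545, with a difference of -0.24 ± 0.12 (SE). Limma and edgeR called 0 genes (1642, or 9.25%, and 1602 at an unadjusted p under 0.05), and DESeq2 called 85 (0.479%), again with no member. Here DESeq2 gave no adjusted p to 3443 genes, which its share likewise counts as not called. Dopamine markers moved with both of these comparisons: all 12 of their list were higher in each, with medians of 0.99 and 0.85 on the log2 scale, and sums of 27644 to 72946 normalized counts in GFP control, 28550 to 117130 in GFP defeat and 67440 to 129532 in Setd7 control. None of the 12 is at 0 in all libraries, and their part in the vascular values was not tested. Without the 3 libraries of low Th, which leaves 1 GFP control library, 5 of 10 members were higher for Setd7 without defeat, from -0.24 for Rgs5 to 0.39 for Tinagl1, with Cldn5 at 0.39, Thbd at 0.33 and Adgrl4 at -0.12. For defeat with GFP 6 of 10 were then higher, from -0.39 for Rgs5 to 0.34 for Cldn5, with Tinagl1 at 0.26, Thbd at 0.20 and Adgrl4 at -0.14.

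The interaction, which asks whether the Setd7 effect differs between defeated and undefeated mice, was above 0 for all 10 members (50.1% of all genes), from 0.10 for Cldn5 to 1.36 for Thbd, with a median of 0.44. The members were chosen with these values known, so this count carries no test. By limma the adjusted p of the 7 standard markers was 0.942 to 0.982, and Pecam1 (0.47 ± 0.17, SE) and Rgs5 (0.53 ± 0.18) had an unadjusted p under 0.05, as 4.96% of all genes did. Limma and edgeR called 0 genes (880 and 877 at an unadjusted p under 0.05) and DESeq2 called 1 (0.00563%), not a member. Without Setd7 defeat replicate 1 the median was 0.25 and 9 of 10 were above 0. Cldn5 then stood at -0.34, Vtn at 0.03, Pdgfrb at 0.05, Cdh5 at 0.17, Pecam1 at 0.31, Tinagl1 at 0.37, Thbd at 0.52, Flt1 at 0.18, Adgrl4 at 0.38 and Rgs5 at 0.58. Without the 3 libraries of low Th, Cldn5 stood at -0.19, Cdh5 at 0.24, Tinagl1 at 0.36 and Thbd at 0.99. Without replicate 2, the limma calls rest on the lone replicate 1 and held no standard marker. They held Fn1 of the meningeal fibroblast list and Slc22a8.

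Meningeal fibroblast genes moved in the same direction as the members after defeat. All 16 were higher with Setd7 by log2 0.57 to 2.22, with a median of 1.04, which was 0.17 without replicate 1. Their summed level was 6258 to 8088 normalized counts in GFP control, 5483 to 8618 in GFP defeat, and 5687 to 9564 in Setd7 control. The 2 Setd7 defeat libraries summed to 29956 and 6560, and none of the 16 is at 0 in all libraries. Fn1, which encodes fibronectin, read 8241 in replicate 1, 2876 in replicate 2 and 2431 to 2983 in the 11 others. Igf2, a growth factor of the meninges in the adult brain, read 8530, 1139 and 940 to 2946. Their part in the vascular differences of replicate 1 was not tested. In replicate 2 the meningeal mean was 0.04 log2 units below that of the 11 others. There the endothelial markers were 0.10 and the pericyte markers 0.15 above the mean of the 11, both within their range. The picked genes were 0.32 above it and outside that range, but they were chosen by their values in these same libraries.

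**Figure D3:**
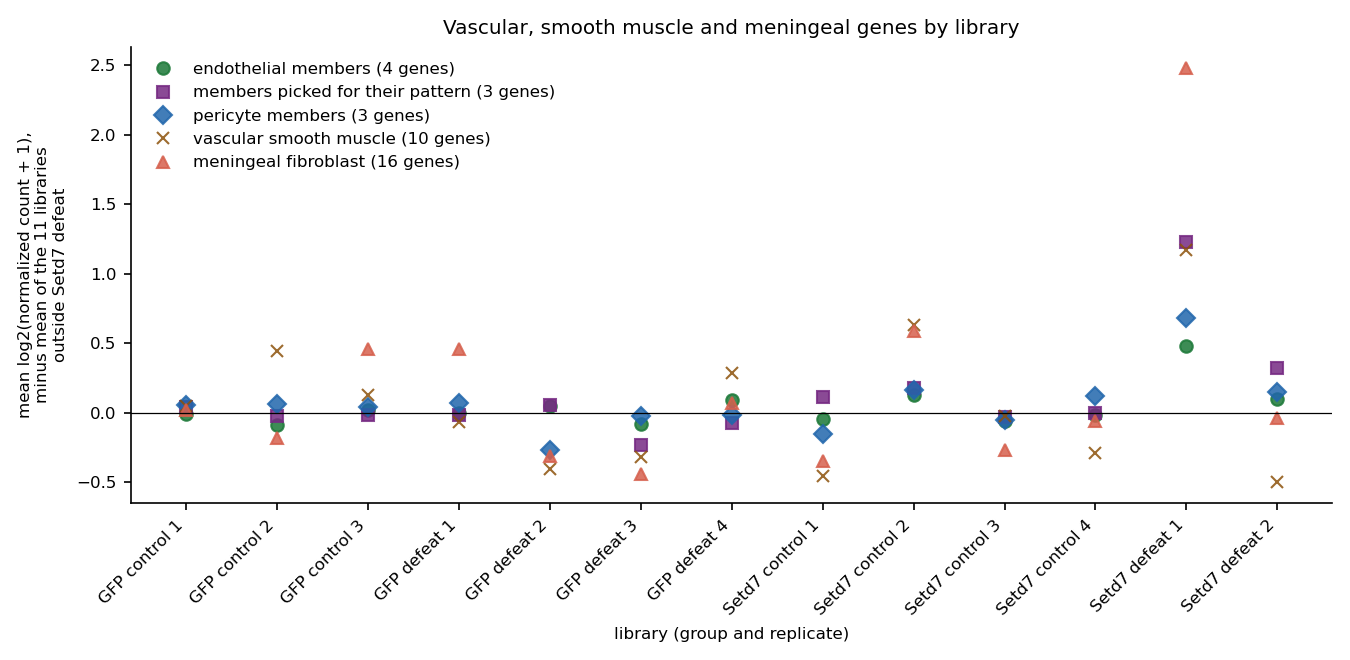
Mean log2(normalized count + 1) of the gene groups in each of the 13 libraries, minus the mean of the 11 libraries outside Setd7 defeat (vertical axis). In Setd7 defeat replicate 1 the meningeal fibroblast genes stand 2.48 above that mean, the picked genes 1.23, vascular smooth muscle 1.17, the pericyte markers 0.68 and the endothelial markers 0.48. In replicate 2 the picked genes, chosen by their values in these same libraries, stand highest, at 0.32.

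Of the other cell types, border macrophage genes (6) had sums of 304 to 475 normalized counts in GFP control, 277 to 466 in GFP defeat, and 285 to 517 in Setd7 control. The 2 Setd7 defeat libraries summed to 679 and 382. Their most abundant genes read 289 and 134 (Mrc1) and 210 and 191 (F13a1) in the 2 Setd7 defeat libraries, against 129 to 247 and 68.8 to 185 in the 11 others. Microglia genes (8) summed to 16060 and 11914 in Setd7 defeat, within the 9896 to 26914 of the 11 others. Their mean log2 level in replicate 1 (10.82) was nonetheless above every other library but Setd7 control replicate 4 (11.56). All 8 were higher with Setd7 after defeat, by a median of 0.25, and 0.11 without replicate 1. Without defeat all 8 were also higher with Setd7, by a median of 0.41. Astrocyte genes (8) summed to 118531 and 110340, within 99172 to 126527. Choroid plexus, ependymal, oligodendrocyte and dopamine neuron sums of both Setd7 defeat libraries were also within the range of the 11, and thalamic genes (8) summed to 22905 and 31424 against 23631 to 70545. By mean log2 level, however, the ependymal genes in replicate 2 (3.30) were below all 11 (3.44 to 6.46), with replicate 1 at 6.12. The part of these cell types in the vascular values was not tested. Of the 7 blood genes only Alas2 passed the filter, and the hemoglobin genes Hba-a1, Hba-a2, Hbb-bs and Hbb-bt are listed at 0 in all 13 libraries, so this list gives no reading of blood content.

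Wider vascular lists, 8 in all with 126 genes, were read for context, and limma called none of their genes in any of the 5 comparisons with all libraries. In the endothelial identity and signalling list, 24 of 26 genes were higher with Setd7 after defeat, with a median log2 difference of 0.21, and 0.10 without replicate 1. The phosphatase Ptprb, which holds the receptor Tek in check, read 5865 and 4518 normalized counts in Setd7 defeat against 4024 to 4715 in GFP defeat. Podxl, a sialomucin of the luminal surface, read 2668 and 1904 against 1655 to 2194, and Eng, a co-receptor for transforming growth factor beta, 1147 and 1199 against 1071 to 1193. Each of the 3 thus overlapped GFP defeat in at least 1 library. In 7 of the 26 genes both Setd7 defeat libraries were above all 4 GFP defeat libraries (7.09% of all genes tested) and above all 11 others in 0 (0.997%).

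Barrier junction and transport genes differed less, with 17 of 20 higher, a median of 0.10 and a median of 0.11 without replicate 1. Bsg, the chaperone of monocarboxylate transporters, read 13334 and 12383 normalized counts in Setd7 defeat and 10589 to 11313 in GFP defeat, and both values were above the 9987 to 11873 of all 11 other libraries. Tjp1, the scaffold ZO-1 of tight junctions, read 7887 and 8343 against 6698 to 7351 in GFP defeat. The glucose transporter Slc2a1 read 5886 and 4999 against 4301 to 5299 and overlapped. In this list both Setd7 defeat libraries were above all 11 others in 4 of 20 genes, beside 0.997% of all genes tested. Limma adjusted p was 0.990 for each of the 3 named genes.

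Coagulation and adhesion genes, the list nearest to Thbd in function, had 9 of 12 tested genes higher after defeat with Setd7, with a median of 0.26, and 0.03 without replicate 1. The other 3 were lower, and the log2 differences ran from -0.19 to 1.19, so the most abundant genes do not show the whole range. Vwf, the platelet-binding von Willebrand factor, read 3122 normalized counts in replicate 1 and 1178 in replicate 2, against 1209 to 2097 in GFP defeat, so the 2 libraries lay on opposite sides of that group. Tissue factor, F3, read 2037 and 1847 against 1707 to 2031, and the thrombin receptor F2r 1599 and 1596 against 1171 to 2011. Both Setd7 defeat libraries were above all 4 GFP defeat libraries in 1 of the 12 genes, a share near the 7.09% of all genes, and above all 11 in 0 (0.997%).

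Arterial and venous genes were higher in 10 of 11, with a median of 0.22 that became -0.07 without replicate 1. Of its most abundant genes, Nr2f2, a factor of venous identity, was lower by log2 0.21, while Hey1, a Notch target, was higher by 0.12 and Efnb2, an arterial ligand, by 0.20. The pericyte list had 13 of 15 genes higher, with a median of 0.17. The median was 0.27 without replicate 1 and 0.30 without replicate 2, but the genes behind it differed between the 2 libraries. Of the 15 genes, 5 were highest of the 13 libraries in replicate 1 and 3 in replicate 2. Read directly against the GFP defeat mean, Ifitm1 stood at 2.04 in replicate 1 and 0.74 in replicate 2. Kcnj8 stood at -0.02 and 0.35, and Art3 at -0.44 and 0.57. The most abundant genes of the list moved little: Notch3, a receptor of mural cells, by 0.11 ± 0.16 (SE), Cspg4, the proteoglycan NG2, by -0.06 ± 0.08 and Mcam, an adhesion molecule, by -0.03 ± 0.10, each with a limma adjusted p of at least 0.990. Cspg4 is also made by oligodendrocyte precursors. In 2 of the 15 pericyte genes both Setd7 defeat libraries were above all 4 GFP defeat libraries (7.09% of all genes) and above all 11 others in 0 (0.997%).

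Vascular smooth muscle genes, 8 of 10 of which were higher by a median of 0.46, split between the libraries: the median was -0.09 without replicate 1 and 1.25 without replicate 2. Their sum was 2405 to 2972 normalized counts in GFP control, 1637 to 2601 in GFP defeat, 1507 to 3598 in Setd7 control, 5370 in replicate 1 of Setd7 defeat and 1909 in replicate 2. Smooth muscle actin, Acta2, read 1333 and 259, against 174 to 785 in the 11 others, the myosin Myh11 786 and 290 (196 to 643), and the kinase Mylk 1155 and 604 (417 to 997). Basement membrane genes were higher in 11 of 12 tested, with a median of 0.25, and 0.01 without replicate 1. Lamc1, a laminin chain, read 3044 and 2874, both above the 1974 to 2586 of the 11 others, whereas Sparcl1 (68889 and 77939) and Sparc (33952 and 33552), which astrocytes also make, were within theirs.

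Ligands and partners of the members, such as the VEGF and PDGF ligands and the cadherin partner beta-catenin, had 11 of 17 genes higher after defeat with a median of 0.04, close to that of all genes. Ctnnb1, beta-catenin itself, differed by 0.02 ± 0.09 (SE), the vitronectin-binding integrin Itgav by 0.01 ± 0.07 and the neural cadherin Cdh2 by -0.03 ± 0.15 on the log2 scale. All 3 overlapped GFP defeat in both Setd7 defeat libraries or in 1 of them, and many other brain cells also make them.

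**Figure D4:**
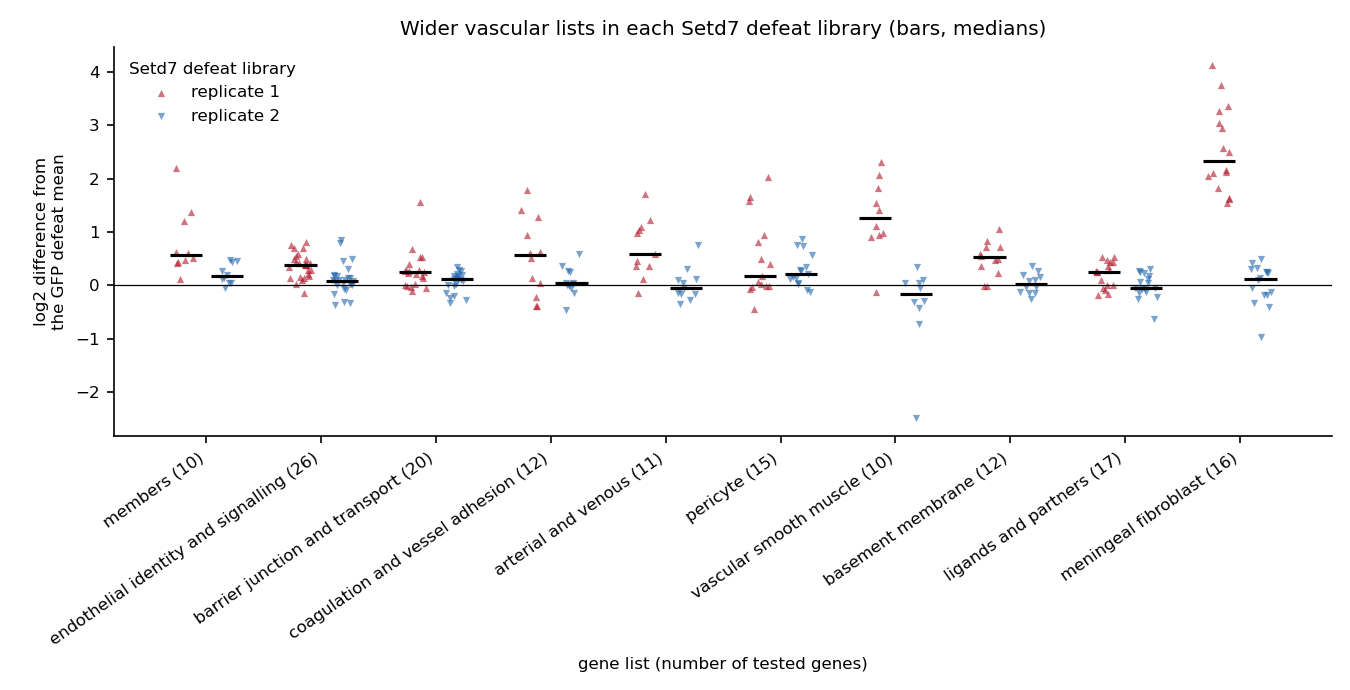
Log2 difference from the GFP defeat mean (vertical axis) of each tested gene in Setd7 defeat replicate 1 (upward triangles) and replicate 2 (downward triangles), by gene list, with bars at the medians. Replicate 1 lies highest for meningeal fibroblast and vascular smooth muscle genes, and the pericyte list is the vascular list in which the 2 medians lie closest.

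Over the 13 libraries the members correlated with each other, as Pearson r of log2(normalized count + 1), with a median of 0.56 over 45 pairs, all above 0. Without Setd7 defeat replicate 1 the median was 0.24 and 30 of 45 were above 0, and over the 11 libraries outside Setd7 defeat it was 0.12 with 27 above 0. The points share scaling and tissue content, and these are descriptions. Pecam1 and Cdh5, both proteins of the endothelial junction, kept together, with r of 0.90 over 13 libraries and 0.79 over 12. Vtn and Pdgfrb had 0.79 and 0.65. Cldn5 went the other way: its r with Pecam1 fell from 0.14 to -0.74, with Cdh5 from 0.16 to -0.59 and with Adgrl4 from 0.12 to -0.69 when replicate 1 was left out. Over those 12 libraries the 6 pairs among the 4 endothelial markers ran from -0.74 to 0.79.

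**Figure D5:**
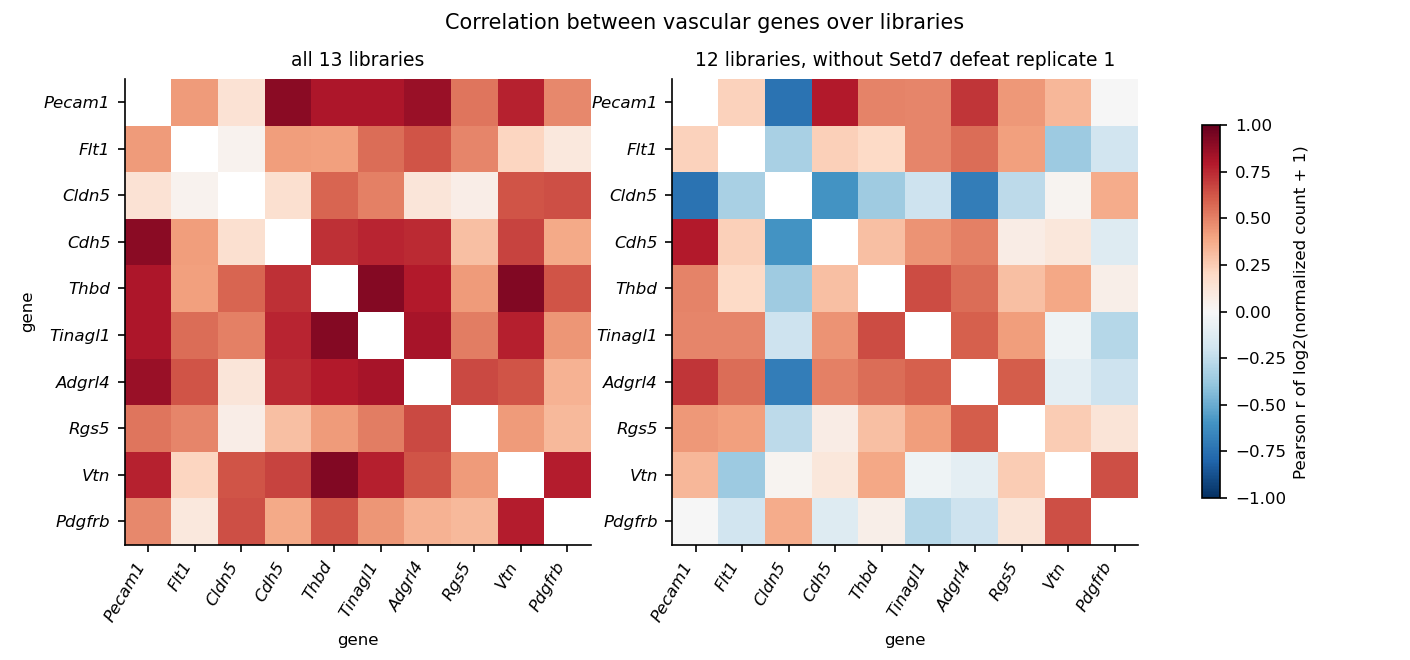
Pearson r between each pair of the 10 genes over all 13 libraries (left) and over the 12 without Setd7 defeat replicate 1 (right), with colour from -1 to 1. The left map holds only positive values, and in the right map Cldn5 is negative with Pecam1, Cdh5 and Adgrl4.

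Among 13683 other genes with a mean of at least 30 normalized counts, those most alike to the mean of Pecam1, Flt1, Cldn5 and Cdh5 over the 13 libraries were Tgfbr3 (r = 0.94), Fmod (0.93), Kank2 (0.93), Lox (0.92) and Bmp7 (0.92). Without Setd7 defeat replicate 1 their ranks were 269, 59, 157, 20 and 527. Among those most alike to the mean of Rgs5, Vtn and Pdgfrb were Crispld2 (0.93), Bgn (0.93), Mrc2 (0.92) and Colec12 (0.91), and their ranks without that library were 21, 20, 42 and 41. All 9 named genes were highest in replicate 1: Fmod, a matrix proteoglycan, read 1774 normalized counts there, 155 in replicate 2 and 81.1 to 410 in the 11 others, and Bgn, the proteoglycan biglycan, read 1580, 518 and 343 to 714.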

How the data were processed

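Total RNA was purified with RNeasy Micro kits and depleted of ribosomal RNA for TruSeq sequencing, per the labels' protocols. Per the submitters' processing notes, Bowtie2, featureCounts and DESeq2 were used with build GRCm39, with no versions. The authors deposited 1 table of signal, gene counts divided by DESeq2 size factors. Each of its 341432 values (100%) was within 0.01 of a whole number of reads after division by the step of their library, so reads were recovered.

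Genes with at least 10 normalized counts in at least 2 libraries were tested (17755 kept, 8509 not). The fit was limma 3.58.1 with trend (R 4.3.3) on log2(normalized count + 1), with 4 group means and a sex term over all 13 libraries, two-sided, Benjamini-Hochberg adjusted over all genes at 0.05. Fold changes are on that scale, and SE is limma's moderated one. EdgeR 4.0.16 (quasi-likelihood) and DESeq2 1.42.0 were run on the recovered reads. All 3 were tested on simulated data. Other alternatives were TMM scaling, a pseudocount of 8, a filter at 50, no filter, no sex term, only the groups compared, leaving out each library, and leaving out the 3 libraries of low Th. The comparison of sexes was added after seeing the data.

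All members are named, with the 3 most abundant genes of each vascular list. So are the 2 most abundant of the other lists set beside a result, and the 5 genes most alike to each marker mean. Predicted and RIKEN names, Xist, Tsix, several Y genes, Setd7 and all listed genes were left out of the search for likeness. List genes called by limma without Setd7 defeat replicate 2 are also named. Ifitm1, Kcnj8 and Art3 were named after seeing the data. The result of 1 of the genes most alike to the pericyte mean is not reported here. The members and lists were chosen with earlier results of these data known. Exon lengths are the union of GENCODE vM21 exons, and promoter windows are RefSeq's, both of GRCm38, used by name only.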

Additional observations from a re-analysis of the deposited data

Results flagged for a closer look

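Pecam1 in Setd7 control replicate 2 read 1114.4 normalized counts, apart from the other 3 libraries of its group at 831.7 to 875.7. The gap was 0.844 of the range of the group. Of 20 groups of values examined for such a gap, chance gives about 1 in 20.

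Rgs5 went in opposite directions with defeat under the 2 viruses. All 4 GFP defeat libraries (3496 to 4267 normalized counts) were below the GFP control mean of 4510, and both Setd7 defeat libraries (5158 and 5316) were above the Setd7 control mean of 4331. The difference between the 2 effects was 0.53 on the log2 scale, with a limma adjusted p of 0.942, so it did not pass over all genes.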

How the results depend on the processing

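Of 1090 recomputed log2 differences of the members, 43 changed sign: 27 between viruses without defeat and 11 between defeat and control under GFP, where the values with all libraries ran only from -0.24 to 0.13, and 5 in the other comparisons. Beyond those 5, 22 moved by more than the replicate spread (12 of them without a Setd7 defeat library), and 2 passed the threshold (Vtn without Setd7 defeat replicate 2, limma adjusted p = 0.0345 between viruses after defeat and 0.043 between defeat and control under Setd7). Leaving out 1 library at a time, the log2 difference of Cldn5 ranged from -0.18 to 0.64 for Setd7 after defeat, from -0.26 to 0.56 for defeat with Setd7 and from -0.34 to 0.49 for the interaction, and that of Vtn from -0.0386 to 1.29 for defeat with Setd7. The lowest value in each case was without Setd7 defeat replicate 1. Without the 3 libraries of low Th the interaction of Cldn5 was -0.19. The cause was not tested.

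Where limma called 0 genes, DESeq2 called 35 (Setd7 without defeat), 6 (Setd7 after defeat), 85 (defeat with GFP), 7 (defeat with Setd7) and 1 (interaction). Without a filter limma called 1 gene each in the comparison of viruses after defeat and in that of defeat under Setd7, and with only the groups compared 2 for Setd7 after defeat. Leaving out 1 library, counts ran from 0 to 4 for Setd7 without defeat (highest without GFP control replicate 1), 0 to 23 after defeat, 0 to 18 for defeat with Setd7 and 0 to 3 for the interaction, these highest without Setd7 defeat replicate 2, when the lone library is assumed to vary like the other groups. No paired analysis was possible because the replicate numbers only follow accession order and the labels' library numbers are all different. With 2 libraries in Setd7 defeat, their own spread limits every comparison that uses them.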

Other observations

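Cldn5 separated the sexes in the 11 libraries outside Setd7 defeat, a comparison chosen after its values were seen. The 6 males read 1224 to 1421 normalized counts and the 5 females 965 to 1203, and 0.27% of all genes tested had all males above all females. Both Setd7 defeat libraries went the other way, with 1717 in the female and 1162 in the male. Over all 13 libraries the limma sex term for Cldn5 was 0.13 ± 0.10 (SE, male minus female, log2), adjusted p = 0.999, and without Setd7 defeat replicate 1 it was 0.26 ± 0.06, adjusted p = 0.709, so it did not pass over all genes in either fit.

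Pecam1 and Cdh5 had sex terms of the opposite sign, -0.24 ± 0.08 and -0.26 ± 0.10 (SE, limma adjusted p = 0.999 for each), and -0.19 and -0.20 without that library. Their male and female ranges in the 11 libraries overlapped, at 758 to 985 against 876 to 1114 for Pecam1 and 677 to 923 against 749 to 994 for Cdh5.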
